A study of Rattus norvegicus with 12 samples.

Results

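The genes described here are the integrin subunits, the laminin chains and a set of basement membrane genes of the rat heart. They are the 42 genes, of 34322 in the deposited tables, whose symbol is Itga followed only by letters or digits, Itgb followed only by digits, Lam followed by a, b or c and a digit, or equals Nid1, Nid2, Hspg2, Agrn or Dag1. They comprise 11 laminin chains, 5 genes of linkers, proteoglycans and dystroglycan, 7 alpha subunits of collagen and laminin receptors, 5 alpha subunits of RGD receptors or close to them (Itga4 and Itga9 included), 8 beta subunits and 6 alpha subunits of leukocytes and platelets. The choice by symbol used no measured value.

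Laminins are trimers of an alpha, a beta and a gamma chain that assemble into the sheet of the basement membrane, and nidogens and perlecan tie that sheet to collagen IV. Integrins, each an alpha and a beta subunit, and dystroglycan hold cells to it and to other matrix. In the heart a basement membrane wraps every cardiomyocyte and underlies the capillary endothelium. The laminin chain Lama2 is typical of muscle, whereas Lama4 and Lama5 are typical of vessels.

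Hearts came from wild-type (WT) male Sprague-Dawley (SD) rats of 180 to 200 g, with no age in the labels. The 4 groups, of 3 libraries each, were sorafenib for 14 days, water for 14 days, sorafenib for 28 days and water for 28 days. Sorafenib, an inhibitor of RAF and of receptor tyrosine kinases such as those of VEGF and PDGF, was given by gavage at 50 mg/kg daily, and control rats received deionized water in equal volume. Whether each library is a separate rat is not in the labels, and p-values then cover only how far libraries of a group differ.

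Libraries held 13746366 to 26403196 counts, apart from sorafenib day 28 replicate 3 with 1036483, in which 1 count equals 0.965 CPM (counts scaled to the library total). The 42 genes took 0.716% to 0.970% of the counts of a library. All 10 cardiomyocyte markers were detected, and summed to 99390 to 216600 TMM-normalized CPM per library. The ribosomal precursor Rn45s took 0.13% to 1.64% of counts in sorafenib libraries and 0.0977% to 0.537% in water libraries, and its part in the results was not tested. In whole hearts, fewer cells of a type and less RNA per cell cannot be told apart.

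Levels are TMM-normalized CPM, and levels of different genes are set side by side only per kilobase of exon (CPM per kb). In hearts, 1 laminin beta chain, Lamb2, had the highest level per length of the 42 genes, at 191 ± 31.2 CPM per kb in sorafenib libraries and 167 ± 23.2 in water libraries (SD, n = 6 each). Lamc1, the gamma chain of most laminins, followed among the chains, at 87.7 ± 7.31 CPM per kb with sorafenib and 121 ± 14.3 with water. The alpha chains stood in the order Lama2, Lama4, Lama5, at 83.8 ± 9.77, 57.5 ± 7.02 and 25.7 ± 12.3 CPM per kb in water libraries, and the ranges of 1 SD did not overlap between neighbours. In sorafenib libraries Lama4 (36.9 ± 10.1 CPM per kb) and Lama5 (33.3 ± 17.7) overlapped. At day 28 with sorafenib their order was turned, with Lama5 at 48.2 ± 10.3 and Lama4 at 30.0 ± 5.26 CPM per kb (SD, n = 3). In water libraries Lama5 had 33.3 ± 13.7 CPM per kb at day 28 and 18.1 ± 4.03 at day 14, and these ranges of 1 SD overlapped. Lama3 (0.141 ± 0.0940 CPM per kb in water libraries) and Lama1 were the lowest of them. Lama1, the chain of early embryonic basement membranes, had 16 counts in all, spread over 7 libraries, and entered no test.

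Among the other matrix genes, Hspg2 (perlecan) had 78.7 ± 6.24 CPM per kb in sorafenib libraries and 103 ± 15.4 in water libraries. Dag1, the dystroglycan precursor, had 46.6 ± 8.10 and 69.6 ± 8.01 CPM per kb in sorafenib and water libraries. Among receptors of collagen and laminin, Itga7, the integrin alpha subunit typical of striated muscle, had 87.3 ± 18.4 CPM per kb with sorafenib and 97.0 ± 17.6 with water. Itga6, another laminin receptor subunit, was lower, at 17.9 ± 4.59 CPM per kb with sorafenib and 34.8 ± 4.09 with water. The spreads of Itga7 and Itga6 did not meet.

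Itgb1, the beta subunit shared by most matrix receptors, had the highest level of all integrin subunits, at 115 ± 12.4 CPM per kb with sorafenib and 143 ± 7.83 with water. Itgb5 followed among beta subunits, at 26.5 ± 5.62 and 31.7 ± 5.84 CPM per kb in sorafenib and water libraries. Among RGD receptor alpha subunits, Itgav, which pairs with several beta subunits, had 24.3 ± 4.27 CPM per kb with sorafenib and 30.3 ± 2.67 with water. Itga5, the fibronectin receptor subunit, had 20.6 ± 3.05 and 23.2 ± 3.91 CPM per kb in sorafenib and water libraries, and its range of 1 SD overlapped that of Itgav in sorafenib libraries only. Leukocyte subunits were far lower: Itgal, the alpha subunit of LFA-1, had 1.88 ± 0.343 CPM per kb with sorafenib and 3.46 ± 1.03 with water, and Itgae had 2.05 ± 0.282 with sorafenib and 2.24 ± 0.450 with water.

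**Figure D1:**
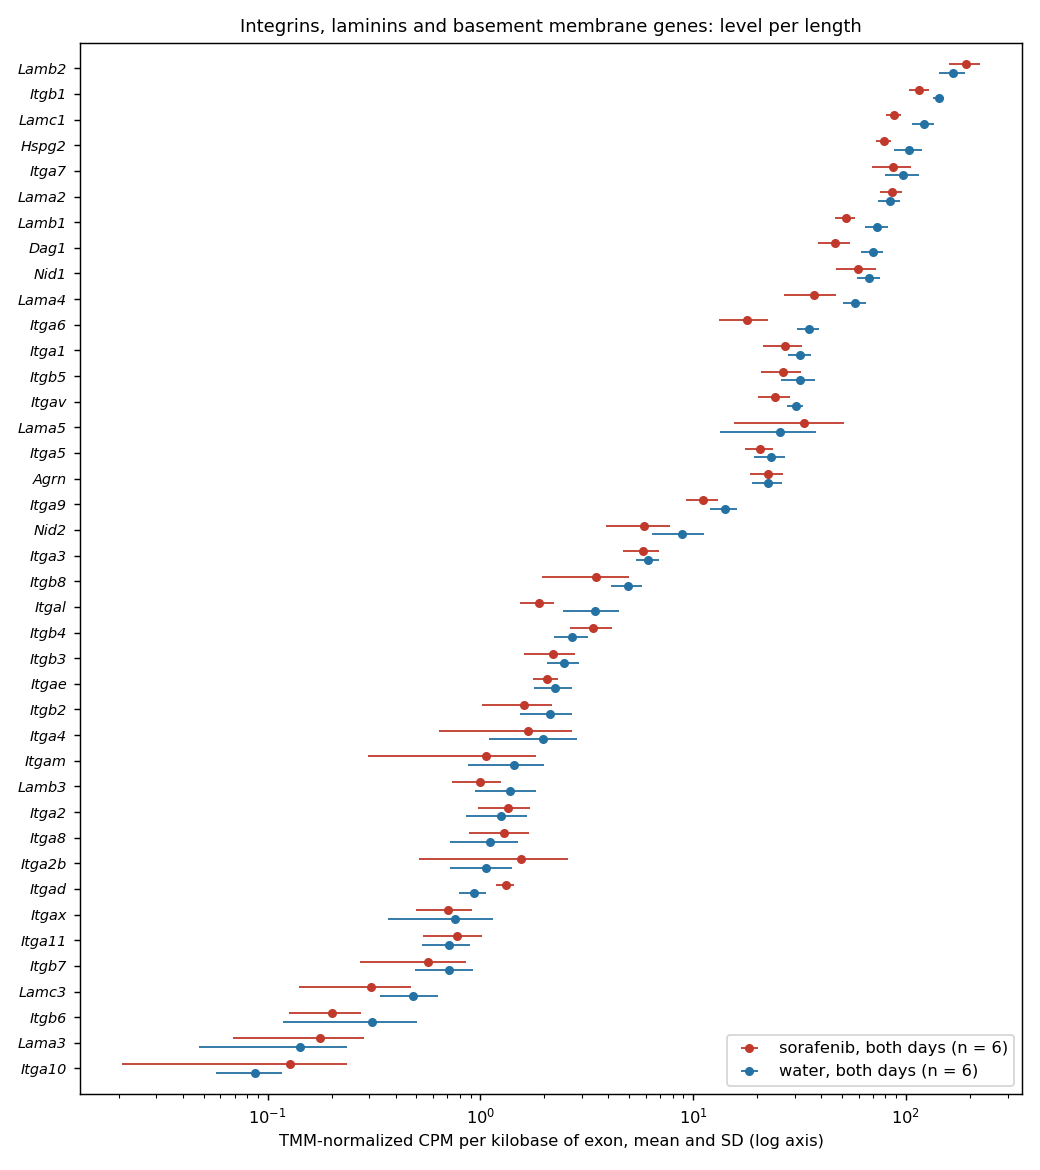
Mean TMM-normalized CPM per kilobase of exon (log axis) of 40 of the 42 genes, in the 6 sorafenib libraries (red) and the 6 water libraries (blue), with SD as bars; Lama1, at or near 0, is not drawn. Lamb2, Itgb1, Lamc1 and Hspg2 stood at the top in water libraries, at 103 to 167 CPM per kb, and the red point of Itga6 lay farthest to the left of its blue point among genes above 10 CPM per kb.

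Sorafenib was compared with water over both days together, as the mean of the effects of each day in a fit of all 12 libraries. The genes that fell with sorafenib were the laminin chains Lama4 and Lamb1, the laminin receptor subunit Itga6, the dystroglycan gene Dag1 and the leukocyte subunit Itgal. No gene of the 41 tested rose past the threshold, an adjusted p of 0.05 over all genes. At an unadjusted p under 0.05, 13 were lower and 2 higher (36.6%, against 24.3% of all genes, of which 13.2% lower and 11% higher). These 5 genes are 12.2% of those tested, against 4.41% of all 18174 genes tested; in the downward direction alone, 2.41% of all genes fell. The median log2 fold change of the 41 was -0.26, against -0.01 over all genes. Of the 41, 30 (73.2%) had a lower level with sorafenib, against 50.8% of all genes.

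Itga6 had 168, 127 and 164 CPM in sorafenib day 14 libraries, against 265, 289 and 225 CPM in water day 14 libraries. At day 28 it had 113, 123 and 79.8 CPM with sorafenib, against 261, 264 and 209 CPM with water. Every sorafenib library lay below every water library. The log2 fold change was -0.995 ± 0.135 (SE), a level 49.8% lower, with an adjusted p of 0.00632. The gene lies on mRatBN7.2 chromosome 3, from 56604512 to 56689428 (plus strand), and its protein pairs with Itgb1 or Itgb4 to bind laminin. The adjusted p stayed between 0.00636 and 0.0252 when any single library was left out.

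Lama4 is the alpha chain of laminins of capillary endothelium and lies on mRatBN7.2 chromosome 20, from 42392268 to 42533347 (plus strand). Its levels were 323.8, 215 and 257 CPM in sorafenib day 14 libraries, against 341, 430 and 324.4 CPM in water day 14 libraries, so the groups nearly touched. At day 28 they were 162, 218 and 165 CPM with sorafenib, against 309, 340 and 344 CPM with water, with a wide gap between the groups. The log2 fold change over both days was -0.67 ± 0.13, with an adjusted p of 0.0215. Reads of a gene on the opposite strand, LOC120098941, cannot be told apart from those of Lama4, but that gene holds 272 counts, against 60338 for Lama4. Without water day 14 replicate 3, sorafenib day 14 replicate 6 or sorafenib day 28 replicate 2 the adjusted p of Lama4 was 0.0717, 0.0525 or 0.0757.

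Lamb1 is a beta chain found in the laminins of vessels and many other tissues (mRatBN7.2 chromosome 6, 47835492 to 47902585, plus strand). It had 318, 319 and 353 CPM in sorafenib day 14 libraries, against 408, 495 and 374 CPM in water day 14 libraries. Day 28 values were 256, 286 and 298 CPM with sorafenib, against 385, 421 and 485 CPM with water. The groups did not overlap at either day, and the log2 fold change was -0.50 ± 0.12, with an adjusted p of 0.0349. The call of Lamb1 was lost in 8 of the 12 fits that left out a library, with adjusted p up to 0.111 (without sorafenib day 28 replicate 2). It was kept without water day 14 replicate 7, water day 28 replicate 2, or sorafenib day 28 replicate 3 or 4.

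Lamc1, the gamma chain that joins Lama4 and Lamb1 in a laminin of vessels, was singled out after its values were seen. It had 594, 650 and 688 CPM in sorafenib day 14 libraries, against 823, 1047 and 807 CPM in water day 14 libraries. Its day 28 levels were 631, 747 and 710 CPM with sorafenib, against 862, 957 and 1050 CPM with water. All sorafenib libraries lay below all water libraries of their day, and the log2 fold change was -0.47 ± 0.13, with an adjusted p of 0.0502, just above the threshold. It passed without sorafenib day 28 replicate 3 or 4. Of the alternative settings listed below, it also passed with no robust dispersion, with the gene length trend removed and with DESeq2.

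**Figure D2:**
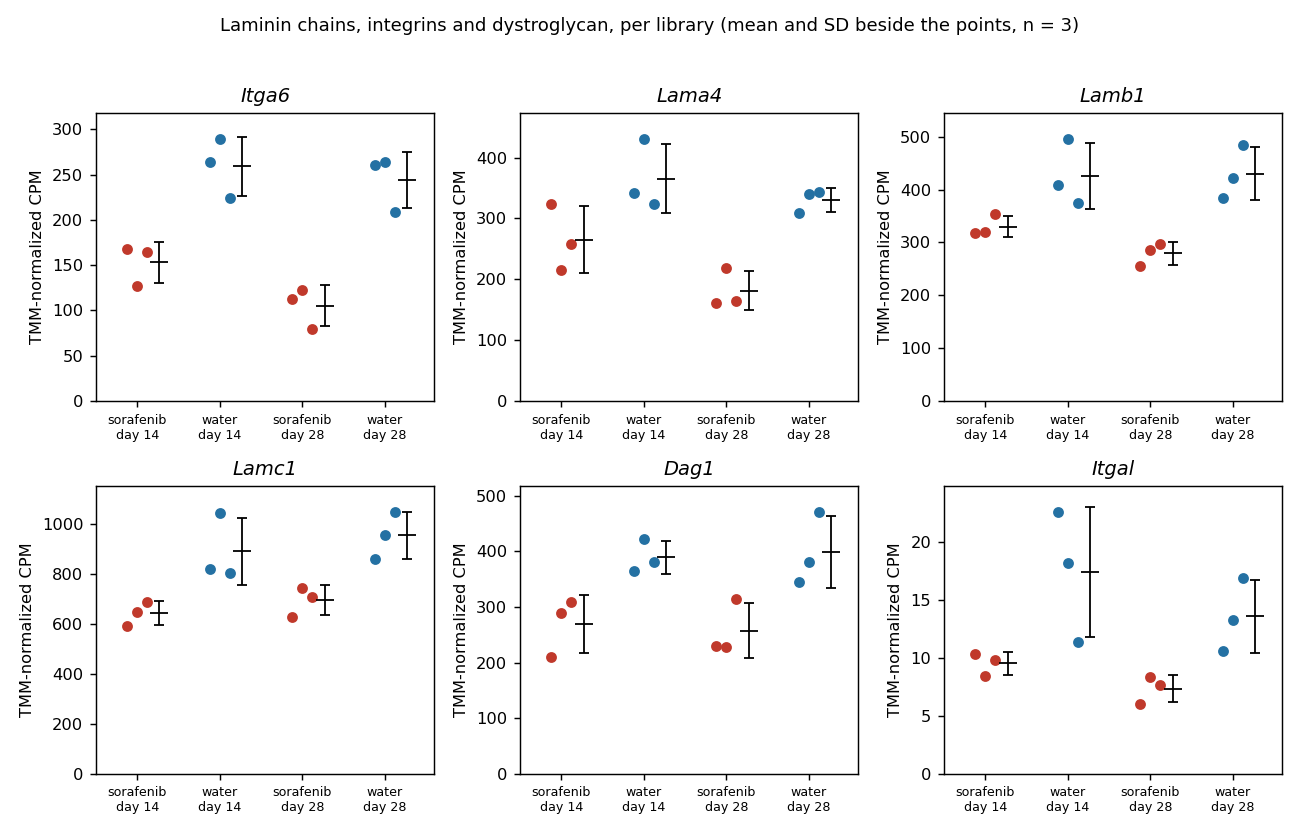
TMM-normalized CPM per library (points; red sorafenib, blue water) with the mean and SD of each group of 3 beside them, for Itga6, Lama4, Lamb1, Lamc1, Dag1 and Itgal at each day. In each panel every sorafenib library lies below every water library of its day, by the least for Lama4 at day 14 (323.8 CPM in the highest sorafenib library and 324.4 in the lowest water library).

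The stretches upstream of Lama4, Lamb1 and Lamc1 are shown because these 3 chains can form a single laminin and all had lower levels with sorafenib in both days. They are the 250 bases before the gene start, read 5′ to 3′ on the strand of the gene, from RefSeq on GRCr8, a later build than that of the counts. Lama4 is at chr20:43946648-43946897 (plus strand), Lamb1 at chr6:53562846-53563095 (plus strand) and Lamc1 at chr13:68051987-68052236 (minus strand). Capitals mark matches, on either strand, of 5 motifs. These were the GC box, with the letters GGGCGG, the ETS core, with CCGGAA, the AP-1 motif, with TGANTCA, the TATA box, with TATAAA, and the CCAAT box, with the letters of its name.
Lama4: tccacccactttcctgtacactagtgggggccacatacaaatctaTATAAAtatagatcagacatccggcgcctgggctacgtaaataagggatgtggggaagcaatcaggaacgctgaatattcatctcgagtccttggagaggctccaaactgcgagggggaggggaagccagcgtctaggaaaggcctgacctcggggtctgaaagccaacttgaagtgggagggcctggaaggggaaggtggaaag
Lamb1: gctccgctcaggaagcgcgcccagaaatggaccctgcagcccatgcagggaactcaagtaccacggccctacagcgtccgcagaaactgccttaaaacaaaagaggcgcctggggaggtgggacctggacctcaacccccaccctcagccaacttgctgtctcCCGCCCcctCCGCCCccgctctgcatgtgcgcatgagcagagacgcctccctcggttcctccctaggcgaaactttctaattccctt
Lamc1: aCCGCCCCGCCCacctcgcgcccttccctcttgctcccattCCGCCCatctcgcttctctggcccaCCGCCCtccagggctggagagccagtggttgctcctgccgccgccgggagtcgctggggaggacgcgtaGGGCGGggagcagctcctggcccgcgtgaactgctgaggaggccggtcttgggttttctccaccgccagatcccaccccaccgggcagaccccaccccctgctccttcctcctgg

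Lamb1 held 2 matches of the GC box and Lamc1 held 5, of which 2 overlap by a base, whereas Lama4 held none of them and 1 TATA box. The GC content was 53.2% for Lama4, 62% for Lamb1 and 71.2% for Lamc1, against a median of 52% over all 27455 promoters. Of the 42 genes, 31 matched the promoter table, and 16 of them (51.6%) held a GC box, against 32.4% of all promoters. An ETS core stood in 4 of the 31 (12.9%, against 13.4% of all), an AP-1 motif in 2 (6.45%, against 6.36%), a TATA box in 2 (6.45%, against 13.1%) and a CCAAT box in 6 (19.4%, against 34.3%). A match is a string of letters in this window and no measured site.

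The laminin chains that did not pass in the average had log2 fold changes of both signs. Lama2, the muscle chain, had 660 to 994.6 CPM over the 12 libraries and a log2 fold change of 0.04 ± 0.13, and Lamb2 had 790.7 to 1315 CPM and 0.20 ± 0.13. Neither of these values passed the test (adjusted p = 0.899 and 0.374), which does not show that the levels were equal. Lamb3 (2.92 to 8.24 CPM), Lamc3 (0 to 4.38 CPM) and Lama3 (0.798 to 6.69 CPM) had log2 fold changes of -0.45 ± 0.24, -0.45 ± 0.31 and 0.10 ± 0.41. Lama5 (156 to 651 CPM) had 0.28 ± 0.20 in the average (edgeR, adjusted p = 0.411). At day 28 alone, sorafenib over water was 0.56 ± 0.31 for Lama5 (edgeR, adjusted p = 0.419). Its sorafenib and water libraries overlapped at both days.

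Ratios within a library do not depend on its scaling, and they are given as a description with no test. The ratio of Lamb1 to Lamb2, per length, was 0.349, 0.259 and 0.380 in sorafenib day 14 libraries, against 0.497, 0.552 and 0.421 in water day 14 libraries. At day 28 it was 0.212, 0.274 and 0.218 with sorafenib, against 0.400, 0.378 and 0.417 with water. The groups did not overlap at either day. The ratio of Lama4 to Lama2 was 0.396 to 0.677 with sorafenib against 0.646 to 0.862 with water at day 14, where 1 sorafenib library lay among the water libraries, and 0.290 to 0.529 with sorafenib against 0.553 to 0.703 with water at day 28. The ratio of Itga6 to Itga7 was 0.151 to 0.351 with sorafenib against 0.352 to 0.421 with water at day 14, and 0.117 to 0.244 with sorafenib against 0.219 to 0.429 with water at day 28, where the groups overlapped.

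**Figure D3:**
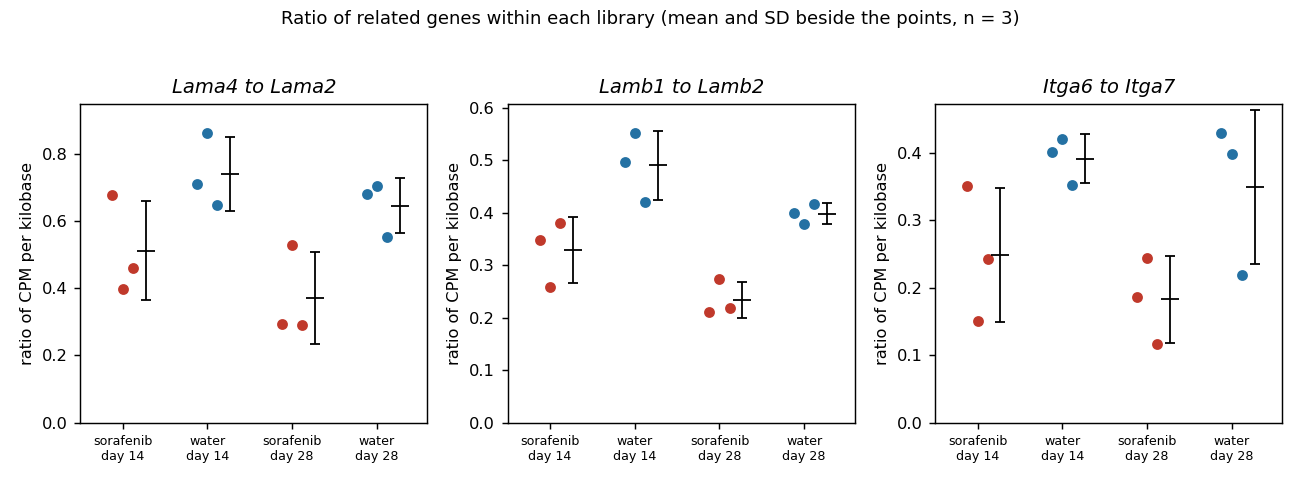
Ratio of CPM per kilobase of related genes within each library (points; red sorafenib, blue water), with the mean and SD of each group of 3 beside them, for Lama4 to Lama2, Lamb1 to Lamb2 and Itga6 to Itga7. The Lamb1 to Lamb2 ratio had a mean of 0.235 with sorafenib and 0.399 with water at day 28, with no overlap, and 1 library crosses in the Lama4 to Lama2 panel at day 14.

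Dag1 encodes both subunits of dystroglycan, the receptor that binds laminin and perlecan outside the cell and dystrophin inside it (mRatBN7.2 chromosome 8, 108890926 to 108955611, minus strand). It had 211, 289 and 309 CPM in sorafenib day 14 libraries, against 365, 422 and 381 CPM in water day 14 libraries. At day 28 it had 230, 228 and 314 CPM with sorafenib, against 345, 381 and 471 CPM with water. No sorafenib library reached the lowest water library of its day, and the log2 fold change was -0.58 ± 0.14, with an adjusted p of 0.0375. The call of Dag1 was lost in 10 of the 12 fits that left out a library, with adjusted p of 0.0517 to 0.115, and kept without water day 28 replicate 2 or sorafenib day 28 replicate 4.

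The other 4 genes of linkers and proteoglycans did not pass, and 2 of them are named for values seen. Hspg2 had 1131, 1053 and 1087 CPM in sorafenib day 14 libraries, against 1220, 1567 and 1247 CPM in water day 14 libraries, and 1308, 1211 and 1157 CPM with sorafenib against 1649, 1645 and 1760 CPM with water at day 28. Its groups did not overlap at either day (log2 fold change -0.38 ± 0.12, adjusted p = 0.0883). Nid2, a nidogen of vessel basement membranes, had 14.2 to 43.4 CPM with sorafenib and 33.3 to 64.5 CPM with water, and -0.55 ± 0.18 (adjusted p = 0.0886). Nid1 (278 to 479 CPM) and Agrn (agrin, 149.7 to 249.8 CPM) had -0.20 ± 0.13 and -0.01 ± 0.15.

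Itgal pairs with Itgb2 into the leukocyte receptor LFA-1 (mRatBN7.2 chromosome 1, 181918183 to 181955735, plus strand). It had 10.3, 8.39 and 9.81 CPM in sorafenib day 14 libraries, against 22.6, 18.2 and 11.4 CPM in water day 14 libraries. At day 28 it had 6.05, 8.36 and 7.64 CPM with sorafenib, against 10.6, 13.3 and 16.9 CPM with water, where the value of sorafenib replicate 3 rests on 10 counts. The groups did not overlap, and the log2 fold change was -0.91 ± 0.18, with an adjusted p of 0.0215. Without water day 14 replicate 3, sorafenib day 14 replicate 6 or sorafenib day 28 replicate 2 the adjusted p of Itgal was 0.0607, 0.0545 or 0.0828.

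Itgb2, the beta subunit of leukocyte integrins, had 3.52 to 8.36 CPM with sorafenib and 4.23 to 9.23 CPM with water (log2 fold change -0.54 ± 0.25, adjusted p = 0.196). Of the other leukocyte and platelet subunits, Itgam (1.96 to 9.70 CPM), Itgax (5.86 to 20.3 CPM) and Itgae (6.48 to 11.2 CPM) had -0.70 ± 0.39, -0.17 ± 0.27 and -0.15 ± 0.16. Itga2b, the platelet subunit (2.50 to 13.4 CPM), had 0.37 ± 0.24. Itgad, a leukocyte subunit, was the only gene of the 41 whose sorafenib libraries lay above the water libraries at both days, at 4.45 to 5.85 CPM with sorafenib and 3.20 to 4.59 CPM with water (0.48 ± 0.17, adjusted p = 0.100).

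Of the other receptors of collagen and laminin, Itga1, a collagen receptor subunit, had 223 to 411 CPM and a log2 fold change of -0.26 ± 0.11 (adjusted p = 0.151). Itga7 (257 to 512 CPM), Itga3 (25.1 to 39.9 CPM), Itga2 (5.83 to 13.4 CPM), Itga11 (2.50 to 5.92 CPM) and Itga10 (0.246 to 1.67 CPM) had -0.15 ± 0.16, -0.06 ± 0.13, 0.07 ± 0.19, 0.09 ± 0.24 and 0.18 ± 0.44. Of the RGD receptor subunits and their neighbours, Itgav (136 to 232 CPM), Itga9 (141 to 248 CPM), Itga4 (4.32 to 20.9 CPM), Itga5 (83.2 to 142 CPM) and Itga8 (3.79 to 10.9 CPM) had -0.31 ± 0.12, -0.33 ± 0.13, -0.43 ± 0.33, -0.17 ± 0.13 and 0.16 ± 0.20. None of these alpha subunits passed the test.

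Of the 8 beta subunits 7 had a negative log2 fold change, and none passed. Itgb1 had 391 to 522 CPM with sorafenib and 495 to 582 CPM with water over both days (-0.31 ± 0.11, adjusted p = 0.114), and its groups did not overlap within a day. Itgb5 (63.3 to 139.8 CPM), Itgb8 (14.2 to 51.7 CPM), Itgb3 (5.27 to 10.9 CPM), Itgb7 (0.532 to 3.34 CPM) and Itgb6 (0.491 to 3.23 CPM) had -0.25 ± 0.14, -0.45 ± 0.23, -0.24 ± 0.16, -0.48 ± 0.33 and -0.71 ± 0.40. Itgb4, the partner of Itga6 in hemidesmosomes of epithelia, had 0.31 ± 0.13 (adjusted p = 0.171).

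At both days, 8 of the 41 genes had every sorafenib library below every water library (19.5%, against 3.36% of all genes), and 1 had them above (Itgad; 2.44% of all genes). The count of called genes depended on single libraries. It was 1, Itga6, without water day 14 replicate 3, sorafenib day 14 replicate 6 or sorafenib day 28 replicate 2. It was 3 without water day 14 replicate 2, sorafenib day 14 replicate 5 or 7, or water day 28 replicate 3 or 4, and 8 without sorafenib day 28 replicate 4. Without sorafenib day 28 replicate 3, the library of 1036483 counts, it was 5, with Lamc1 in the place of Dag1.

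**Figure D4:**
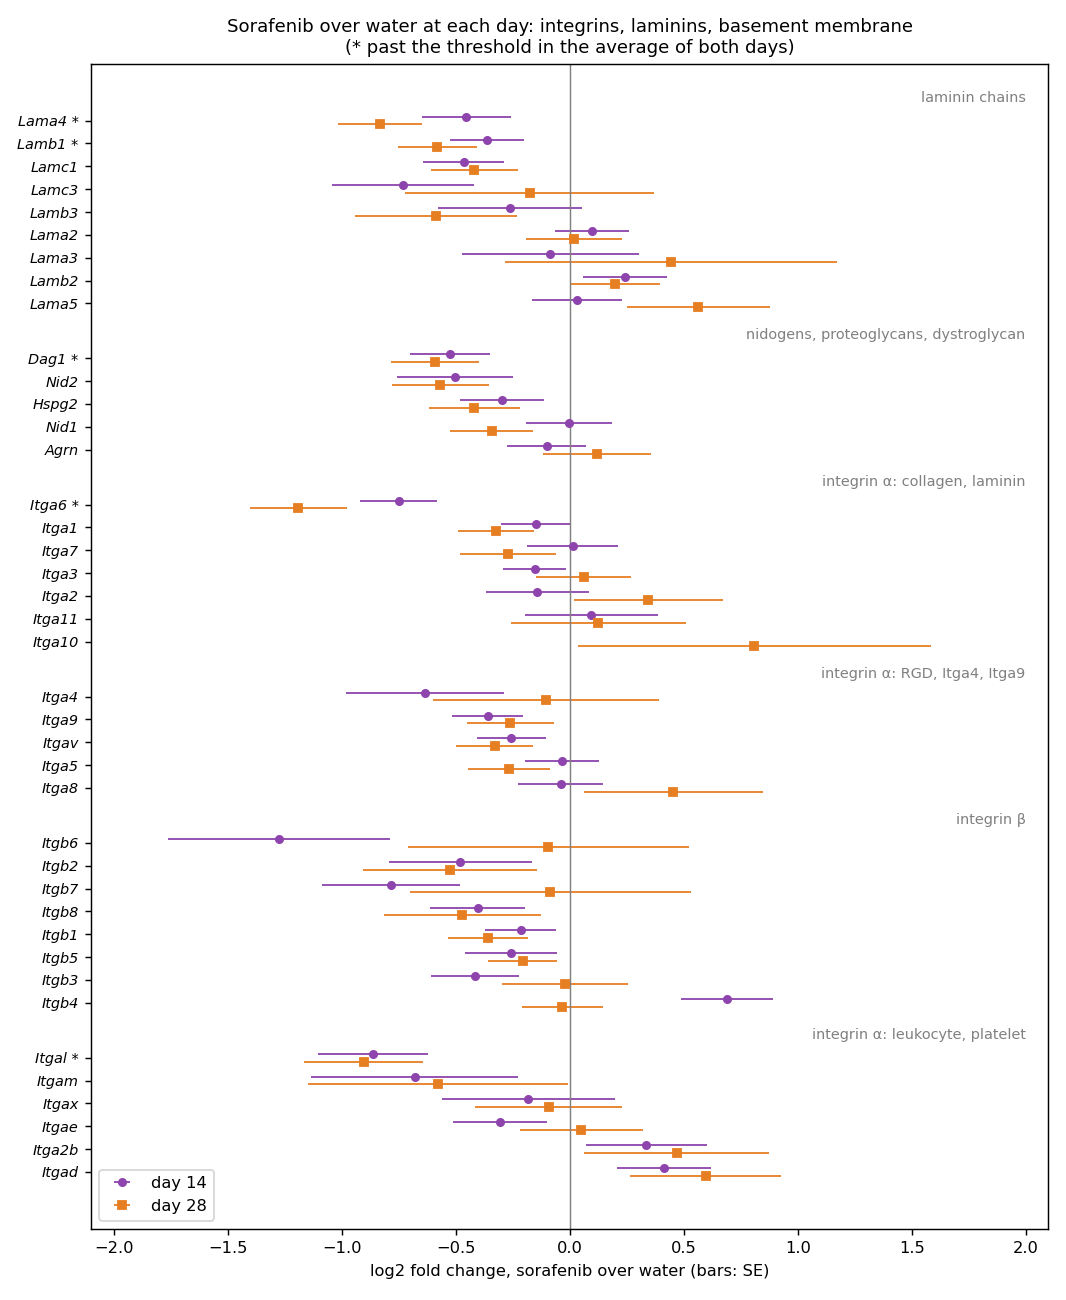
Log2 fold change of sorafenib over water at day 14 (purple circles) and day 28 (orange squares) with SE as bars, for all but 1 of the genes tested, by role and ordered by the average of both days; asterisks mark the 5 genes that passed in the average. Points left of 0 are lower with sorafenib, as were 32 of all 40 genes tested at day 14 and 28 of 41 at day 28. Itga6 is at -0.75 and -1.19, and Itgb4 is at 0.69 at day 14 and -0.03 at day 28.

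Within each day, with 3 libraries against 3, no gene of the set passed edgeR's quasi-likelihood test. At day 14, 0 of 40 tested passed, against 0% of all 17406 genes, and the smallest adjusted p of the set was 0.148. At an unadjusted p under 0.05, 10 were lower and 1 was higher (27.5%, against 14% of all genes, of which 6.93% lower and 7.09% higher), and DESeq2 called 2 (Itga6 and Itgal). The median log2 fold change was -0.26, against 0.001 over all genes. The sorafenib libraries lay all below the water libraries for 13 genes (32.5%, against 10.6% of all genes) and all above for 3 (against 10.5%).

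The 4 genes of smallest p at day 14 were Itga6 (-0.75 ± 0.17, adjusted p = 0.148), Itgal (-0.87 ± 0.24, 0.186), Itgb4 and Dag1 (-0.53 ± 0.18, 0.241), with the levels given above for Itga6, Itgal and Dag1. Itgb4 had 24.7, 22.3 and 28.2 CPM in sorafenib day 14 libraries, against 14.4, 20.3 and 12.2 CPM in water day 14 libraries. It was thus higher in every sorafenib library, with a log2 fold change of 0.69 ± 0.20 and an adjusted p of 0.199.

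At day 28, 0 of 41 tested passed, against 0% of all 17021 genes, with a smallest adjusted p of 0.137. At an unadjusted p under 0.05, 6 were lower and 0 higher (14.6%, against 14.9% of all genes, of which 7.83% lower and 7.04% higher). DESeq2 called 3 of the set (Itga6, Lama4 and Lamb1), among 270 of all genes. The median log2 fold change was -0.21, against -0.003 over all genes. The sorafenib libraries lay all below for 12 genes (29.3%, against 11.9% of all genes) and all above for 1 (against 10.1%). The genes of smallest p were Itga6 (-1.19 ± 0.21, adjusted p = 0.137), Lama4 (-0.83 ± 0.18, 0.152), Itgal (-0.90 ± 0.26, 0.212) and Lamb1 (-0.58 ± 0.17, 0.218).

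The sorafenib effect at day 28 was set against that at day 14 by an interaction in the fit of all libraries. By edgeR's quasi-likelihood test 0 of 41 genes passed, against 0% of all genes, and DESeq2 called 0 of them and 5 of all genes. At an unadjusted p under 0.05 there was 1 gene (2.44%, against 4.42% of all genes, 2.16% lower and 2.26% higher), Itgb4. Its levels at day 28 were 16.8, 16.7 and 18.2 CPM with sorafenib, against 18.4, 17 and 19 CPM with water, so the gap of day 14 was not seen there. The difference of the 2 effects was -0.75 ± 0.26 for Itgb4 (unadjusted p = 0.0134 in edgeR's test, adjusted p = 0.999).

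The next genes by p were Itga6 (difference -0.47 ± 0.27), Lama4 (-0.42 ± 0.27) and Itgb6 (1.14 ± 0.79), each with an adjusted p of 0.999. Itgb6, a subunit of epithelial receptors that activate TGF-beta, had 1.02, 0.805 and 0.606 CPM in sorafenib day 14 libraries, against 3.23, 1.73 and 0.977 CPM in water day 14 libraries. In day 28 libraries it had 0.806, 1.67 and 1.06 CPM with sorafenib, against 0.491, 1.08 and 1.75 CPM with water. The groups overlapped at both days, and at day 28 the 1.67 CPM of sorafenib replicate 3 are 2 counts.

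Over time in treated hearts, 1 gene of the 41 rose: Lama5, an alpha chain of mature vessel basement membranes (mRatBN7.2 chromosome 3, 167270296 to 167318370, minus strand). This is 2.44% of the genes tested, against 3.32% of all genes, and 2.27% of all genes in the upward direction. Lama5 had 421, 562 and 651 CPM in sorafenib day 28 libraries, against 213, 240 and 171 CPM in sorafenib day 14 libraries. The groups did not overlap, and the log2 fold change of day 28 over day 14 was 1.39 ± 0.29, with an adjusted p of 0.0201. Without sorafenib day 14 replicate 5, 6 or 7, or sorafenib day 28 replicate 4, that adjusted p was 0.0513, 0.0601, 0.0800 or 0.0796. Days have separate tables, and age, collection and sequencing run cannot be told apart from time on the drug.

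The other genes of smallest p over time with sorafenib were Itga1, Lama4 (-0.56 ± 0.19, adjusted p = 0.125) and Itga6 (-0.56 ± 0.19, 0.125). Itga1 had 267, 243 and 223 CPM in sorafenib day 28 libraries, against 364, 307 and 373 CPM in sorafenib day 14 libraries. Those groups did not overlap, with a log2 fold change of -0.51 ± 0.15 and an adjusted p of 0.0784. From the values above, Lama4 had 162 to 218 CPM in sorafenib day 28 libraries and 215 to 324 CPM in sorafenib day 14 libraries, with an overlap. Itga6 had 79.8 to 123 CPM in sorafenib day 28 libraries and 127 to 168 CPM in sorafenib day 14 libraries, with none. Of the 41 genes, 6 had all sorafenib day 28 libraries below all sorafenib day 14 libraries (14.6%, against 11.3% of all genes). For 4, Lama5 among them, they lay all above (against 10.9% of all genes).

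In water hearts, 0 of the 41 genes passed edgeR's quasi-likelihood test between day 28 and day 14, against 8.51% of all genes (5.8% higher and 2.7% lower). At an unadjusted p under 0.05, 2 were higher and 2 lower (9.76%, against 24.5% of all genes). DESeq2 called 2 of the set (Itga8 and Lama5), among 2256 of all genes. Without water day 14 replicate 7 a leukocyte subunit, Itgax, was the only gene of the 41 that passed. Itga8 was the only one without water day 28 replicate 2, and likewise without sorafenib day 28 replicate 3 or replicate 4. Lama5 had 414, 509 and 207 CPM in water day 28 libraries, against 156, 210 and 247 CPM in water day 14 libraries. Water day 28 replicate 4 lay among the day 14 values, and the log2 fold change was 0.88 ± 0.29 (adjusted p = 0.0741, or 0.0141 without that library). The drug groups and the water groups share no library here, and the difference between their time courses is the interaction given above, 0.51 ± 0.41 for Lama5 (adjusted p = 0.999).

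Itga8, a receptor subunit for nephronectin and other RGD ligands, had 5.70, 4.19 and 3.79 CPM in water day 28 libraries, against 8.97, 8.80 and 7.60 CPM in water day 14 libraries. The groups did not overlap, with a log2 fold change of -0.89 ± 0.27 and an adjusted p of 0.0529. That adjusted p was 0.0443, 0.0241 or 0.0491 without water day 28 replicate 2, sorafenib day 28 replicate 3 or sorafenib day 28 replicate 4. Reads of LOC120097958 on the opposite strand cannot be told apart from those of Itga8, and its counts are 4.94% of those of Itga8.

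Itga2, a collagen receptor subunit of platelets and epithelia, had 8.30, 6.90 and 5.83 CPM in water day 28 libraries, against 12.1, 13.2 and 8.63 CPM in water day 14 libraries. Itga2b, the platelet fibrinogen receptor subunit, had 5.21, 5.52 and 4.31 CPM in water day 28 libraries, against 2.50, 2.85 and 3.20 CPM in water day 14 libraries. Neither overlapped between days, and their log2 fold changes were -0.69 ± 0.26 (adjusted p = 0.117) and 0.81 ± 0.32 (adjusted p = 0.138). Of the 41 genes, 5 had all water day 28 libraries below all water day 14 libraries (12.2%, against 16.1% of all genes). For 3 they lay all above (against 17.7% of all genes).

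Cell markers also differed between the water groups, where 5.8% of all genes rose, 2.7% fell and 53.5% had a negative fold change. Of 7 platelet markers 5 were tested and 1 rose, Pf4 (1.98 ± 0.40, adjusted p = 0.00816), while 2 of the 5 had a negative fold change (median 0.06). The platelet markers summed to 14.1 to 19.0 CPM in water day 28 libraries, against 6.63 to 10.5 CPM in water day 14 libraries, with no overlap, and Gp1bb was at 0 at both days. Of 5 mesothelial markers 3 fell, Msln (-5.71 ± 1.18, adjusted p = 0.0103), Upk3b (-5.21 ± 1.40, 0.0348) and Lrrn4 (-3.11 ± 0.75, 0.0214), and their sum was 15.3 to 33.8 CPM in water day 28 libraries, against 42.4 to 75.8 CPM in water day 14 libraries. Of 8 pericyte and smooth muscle markers 3 rose (Rgs5, Cnn1 and Myh11, by 0.63, 1.86 and 0.97 on the log2 scale) and 3 had a negative fold change, with sums that overlapped. Of 10 cardiomyocyte markers 2 rose and 0 had a negative fold change. Of 5 Schwann cell markers 1 rose and 2 had a negative fold change, as was so for the 5 erythroid markers. No tested marker of endothelial cells, fibroblasts, myeloid cells, lymphocytes, atrial cardiomyocytes or adipocytes passed. Of 10 endothelial markers 3 had a negative fold change (median 0.04). The part of these cells in the day differences of Itga8, Itga2, Itga2b and Lama5 was not tested.

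**Figure D5:**
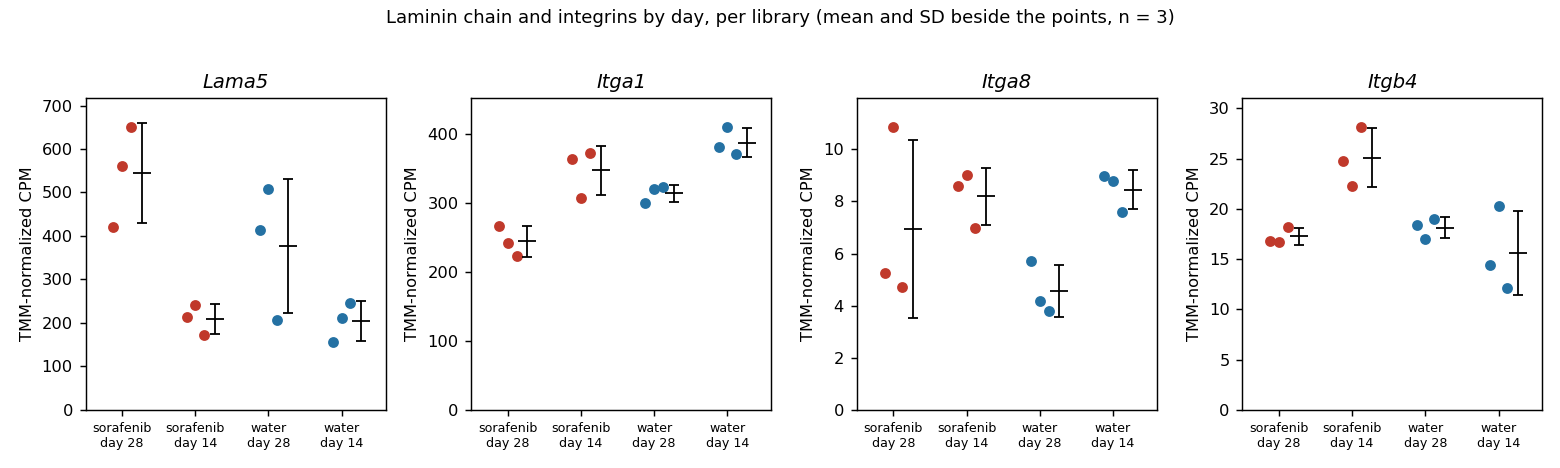
TMM-normalized CPM per library (points; red sorafenib, blue water) with the mean and SD of each group of 3 beside them, for Lama5, Itga1, Itga8 and Itgb4, with day 28 left of day 14. Lama5 in sorafenib libraries was at 421 to 651 CPM at day 28 and at 171 to 240 CPM at day 14, and 1 water day 28 library, at 207 CPM, lay among the day 14 libraries.

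Genes that work with these were followed in 4 lists. Of 23 proteins of the basement membrane outside the set, 4 fell and 1 rose with sorafenib in the average of both days (4.41% of all genes called), with a median log2 fold change of -0.22. Col15a1, a collagen that bridges basement membrane and stroma, had 322 ± 28.5 CPM with sorafenib and 515 ± 101 with water at day 14, and 218 ± 5.45 and 405 ± 87.9 with sorafenib and water at day 28 (SD, n = 3 each). It fell by 0.79 ± 0.13 on the log2 scale (adjusted p = 0.0140). The collagen IV chains Col4a1 (-0.64 ± 0.14, adjusted p = 0.0290) and Col4a2 (-0.58 ± 0.14, 0.0381) and Smoc2, a calcium-binding matrix protein (-0.66 ± 0.16, 0.0382), fell as well.

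Tinagl1, a secreted glycoprotein of basement membranes, rose, with 50.7 ± 9.96 CPM with sorafenib and 19.9 ± 8.22 with water at day 14 and 114.5 ± 41.6 and 60.0 ± 19.7 CPM with sorafenib and water at day 28. Its log2 fold change was 1.16 ± 0.23 (adjusted p = 0.0214). Within a day none of the 23 passed, and the smallest p were those of Tinagl1 (1.36 ± 0.27, adjusted p = 0.125) and Col15a1 (-0.67 ± 0.18, 0.176) at day 14 and of Col15a1 (-0.85 ± 0.19, 0.152) and Smoc2 (-0.96 ± 0.28, 0.215) at day 28.

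Of 31 genes of the adhesion complex inside the cell, 30 were tested, 1 fell and 1 rose in the average, and 26 had a negative fold change (median -0.15). Over all genes 2.41% fell, 2% rose and 50.8% had a negative fold change. Lims1, the adaptor PINCH that binds integrin-linked kinase, had 193 ± 7.75 CPM with sorafenib and 265 ± 15.9 with water at day 14, and 133 ± 29.2 CPM with sorafenib and 200.6 ± 27.5 with water at day 28. It fell by 0.52 ± 0.12 (adjusted p = 0.0320), and Tns2, a tensin that binds integrin tails, rose by 0.48 ± 0.12 (adjusted p = 0.0377), at 218 ± 10.96 CPM with sorafenib and 138 ± 18.0 with water at day 14 and 221 ± 22.0 with sorafenib and 179 ± 32.0 with water at day 28. At single days none passed, and the smallest p were those of Tns2 (0.66 ± 0.15, adjusted p = 0.140) and Lims1 (-0.45 ± 0.13, 0.201) at day 14 and of Lims1 (-0.55 ± 0.19, 0.254) and Parvb (-0.51 ± 0.18, 0.275) at day 28.

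Of 23 genes of the dystrophin complex and of dystroglycan glycosylation, 0 passed in the average, in which Dag1 had fallen, against 4.41% of all genes. Of the 23, 17 had a negative fold change (median -0.14), against 50.8% of all genes. The syntrophin Sntb1 had a log2 fold change of -0.37 ± 0.20 at day 14 (edgeR, adjusted p = 0.441). The smallest p at day 28 were those of Sntb1 (-0.64 ± 0.18, adjusted p = 0.212) and sarcospan, Sspn (-0.66 ± 0.25, 0.293). Of 22 other integrin ligands, 18 were tested and 0 passed in the average, against 4.41% of all genes, and 12 had a negative fold change (median -0.11). The smallest p were those of Fbln1 (0.42 ± 0.18, adjusted p = 0.350) and Ccn2 (0.54 ± 0.24, 0.359) at day 14 and of vitronectin, Vtn (-0.79 ± 0.20, 0.174), and Tgfb1 (-0.64 ± 0.18, 0.212) at day 28.

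In water hearts at day 28 over day 14, 6 of the 18 ligands tested rose and 0 fell, where 5.8% of all genes rose and 2.7% fell. Of the 30 adhesion complex genes 4 rose and 0 fell, of the 23 basement membrane proteins 2 rose and 2 fell, and of the 23 dystrophin complex and glycosylation genes 0 passed, beside 0 of the 41 integrin, laminin and linker genes. With sorafenib over the same days 2 ligands and 1 adhesion complex gene rose and 1 gene of the dystrophin complex list fell, where 2.27% of all genes rose and 1.06% fell, and 0 of the 23 basement membrane proteins passed. The 2 ligands, named here after their values were seen, were the matricellular Ccn1 (1.60 ± 0.26 with sorafenib, adjusted p = 0.00642, and 2.07 ± 0.26 with water, 0.000533) and Thbs1 (2.03 ± 0.50 with sorafenib, 0.0412, and 2.69 ± 0.50 with water, 0.00613). The difference between the lists and the set was not tested.

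Markers of the cells that express these genes were read beside them. Of 10 endothelial markers, 2 fell with sorafenib in the average, the VEGF receptor Kdr (-0.73 ± 0.15, adjusted p = 0.0215) and Emcn (-0.54 ± 0.13, 0.0381), and 7 had a negative fold change (over all genes 2.41% fell and 50.8% had a negative fold change). Their summed level was 1668 to 2028 CPM with sorafenib and 1752 to 1988 CPM with water at day 14, and 1797 to 1886 and 1799 to 2125 CPM with sorafenib and water at day 28, so the groups overlapped at both days, with no marker at 0. Their part in the lower levels of Lama4, Lamb1 and Itga6 was not tested. Over time with sorafenib, Kdr and Emcn fell as well (-0.84 ± 0.21, adjusted p = 0.0442, and -0.97 ± 0.19, 0.0154), as did Kcnj8 of the pericyte markers (-0.90 ± 0.17, 0.0120); over all genes 1.06% fell.

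Of 8 markers of pericytes and smooth muscle, 1 fell in the average, the potassium channel gene Kcnj8 (-0.63 ± 0.12, adjusted p = 0.0185), and 4 had a negative fold change. Their summed level was 884 to 934 CPM with sorafenib and 767 to 911 CPM with water at day 14, with an overlap, and 673 to 855 CPM with sorafenib and 882 to 929 CPM with water at day 28, with none. Of 8 fibroblast markers, 1 fell, the collagen-binding proteoglycan Lum (-0.77 ± 0.16, adjusted p = 0.0231), and 7 had a negative fold change. They summed to 3002 to 4411 CPM with sorafenib and 3708 to 4431 CPM with water at day 14, and to 2073 to 5355 CPM with sorafenib and 3514 to 5477 CPM with water at day 28, so the groups overlapped. Of 5 atrial markers, 1 fell, Sln (adjusted p = 0.0235), and 2 had a negative fold change (median 0.09). Sln was at 0 in every sorafenib day 28 library, against 0.688 to 4.58 CPM in water day 28 libraries. The atrial markers summed to 41.7 to 215 CPM with sorafenib and 17.1 to 99.2 CPM with water at day 14. At day 28 they summed to 155.5 to 318 CPM with sorafenib and 25.25 to 308 CPM with water, so the groups overlapped at both days. No marker of cardiomyocytes, platelets, Schwann cells, mesothelium, erythroid cells or adipocytes passed in the average. Still, 9 of 10 cardiomyocyte markers had a negative fold change there (median -0.10), against 50.8% of all genes. At day 14 it was 5 of 10 (median 0.02), and at day 28 all 10 (median -0.24). In the average 2 of 5 platelet, 3 of 5 Schwann cell, 2 of 5 mesothelial and 4 of 5 erythroid markers tested had a negative fold change. The part of these cell types in the lower levels of the laminin and integrin genes was not tested.

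All 12 myeloid markers had a negative fold change, and 4 of them fell in the average (Adgre1, Cybb, C1qb and C1qa, by 1.31, 1.14, 0.98 and 1.23 on the log2 scale), where 2.41% of all genes fell and 50.8% had a negative fold change. Their summed level was 83.7 to 189 CPM with sorafenib and 169 to 318 CPM with water at day 14, and 81.2 to 279 CPM with sorafenib and 194 to 343 CPM with water at day 28, with no marker at 0. These sums overlapped between sorafenib and water at both days. Of 10 lymphocyte markers 6 were tested in the average, 0 passed and 3 had a negative fold change (median 0.04). The lymphocyte markers summed to 3.63 to 8.36 CPM in sorafenib libraries and 4.45 to 7.86 in water libraries. The part of either cell type in the lower level of Itgal was not tested.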

How the data were processed

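RNA of rat heart, depleted of ribosomal RNA, was sequenced in 12 libraries as read pairs with a kit that marks strand, per the labels' protocols. Read counts per gene were deposited, which the authors made with featureCounts 2.0.1 in paired mode without strand on a RefSeq annotation of mRatBN7.2, per the file headers; the submitters' processing notes name STAR without its version. Each day has its own table, and 2 columns of counts that match no sample were not used. Exons of 8 of the 42 genes overlap another gene. No replicate pair agreed within sampling noise (smallest chi-square per gene 7.50).

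Groups follow the labels, and edgeR 4.0.16 (R 4.3.3) tested the counts: filterByExpr, TMM, robust quasi-likelihood test, Benjamini-Hochberg over all genes, threshold 0.05. Each day was fitted alone; the average, the difference and the time comparisons came from a fit of all 4 groups. The day comparisons and the average share libraries. Each SE was taken from F, as the fold change on the log2 scale over the root of F. The code was tested on simulated data.

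Genes and lists were chosen with earlier results of these data known. The rule names in full every gene past the threshold, the 4 of smallest p per comparison and the 2 of highest level per role; of the lists, genes past the threshold in the average and the 2 of smallest p per day; the values of 3 genes are not reported here. Motifs were searched in promoters from RefSeq on GRCr8. Alternative settings comprised RLE factors, DESeq2 1.42.0, no filter, 1 CPM in 3 libraries, no robust dispersion, removal of the gene length trend (lowess span 0.3), a fit of all groups for each day, a replicate block and each library left out.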

Additional observations from a re-analysis of the deposited data

How the results depend on the processing

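No value of the 25 gene results changed direction in the 419 alternatives run, and 368 kept their side of the threshold. The number of genes past the threshold moved more. DESeq2 gave 2 at day 14, 3 at day 28, 8 in the average, 2 between days in water hearts and 3 between days in sorafenib hearts. At day 28 the count was 1 with no filter on low counts, 1 in the fit of all 4 groups and 2 with the replicate number as a block. In the average the count was 6 with no robust dispersion, where Lamc1 was added. It was 7 there with the gene length trend removed, where Lamc1 and Hspg2 were added, and the 8 of DESeq2 were these 7 and Itgb1. Between days in water hearts the count was 1 with the gene length trend removed. Leaving out single libraries gave 1 to 8 in the average, 0 to 1 between days in water hearts and 0 to 1 between days in sorafenib hearts; the cause was not tested.

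In the average the replicate block gave 0, where the day 14 libraries with no partner number contribute nothing; Itga6 then had an adjusted p of 0.0557. The labels do not say whether the numbers pair the day 28 libraries. Correlations of same-numbered deviations were 0.0914, 0.0349 and 0.289; sorafenib replicates 2 and 4 correlated best with their own number, and replicate 3, of 1036483 counts, with water replicate 2. With 1 count equal to 0.836 TMM-normalized CPM, sorafenib day 28 replicate 3 limits genes of a few CPM, such as Itga10, Itgb6, Itgb7 and Lamc3.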
